A study of Mus musculus with 6 samples.

Results

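The Hox genes of mouse mesenchymal stromal cells (MSCs) were described here across 6 RNA-sequencing libraries. Every gene of the count table whose symbol is Hox, a cluster letter from a to d and a number was taken, which gave 39 of 23420 genes: 11 of HoxA on chromosome 6, 10 of HoxB on chromosome 11, 9 of HoxC on chromosome 15 and 9 of HoxD on chromosome 2. The study set MSCs engineered to carry the thymoproteasome, the proteasome form of the thymic cortex, against control MSCs, with 3 libraries a label. By the study's methods, the cells were the adherent cells flushed from femurs of female C57BL/6 mice aged 6 to 8 weeks and expanded in culture. Ctl MSC received the AP2 retroviral construct with its eGFP marker and no proteasome gene, and MSC-TPr received the same construct with the β1i, β2i and β5t subunits joined by self-cleaving viral peptides. Both labels therefore share the retroviral vector and eGFP, and the cells model a cultured, transduced stromal population and not the marrow itself. Nothing in the labels says that libraries of a label came from separate cultures or animals, so p-values measure only the spread between these libraries, which may be technical.

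Between 16158756 and 22158887 reads per library fell on genes, so that a count of 0 in a library allows up to 3 reads, or 0.139 to 0.181 CPM (counts scaled to a library of 1000000 reads, with edgeR's TMM factors). The libraries did not group by their labels in cell division genes. The summed level of 20 cell division genes was 2243, 237 and 231 CPM under the labels Ctl MSC 1, 2 and 3, and 242, 2049 and 2158 CPM under MSC-TPr 1, 2 and 3. Ctl MSC 1 thus stood with MSC-TPr 2 and 3, and MSC-TPr 1 with Ctl MSC 2 and 3. Over all tested genes, principal component 1 (58.5% of the variance) divided the libraries in the same way. Component 2 (28.3%) separated the labels, at -48.9, -20.4 and -19.6 in Ctl MSC and 49.1, 24.2 and 15.6 in MSC-TPr. Of the transduced genes, Psmb9 (β1i) was at 3.38, 0.801 and 0.827 CPM under the Ctl MSC label and at 0.553, 1.24 and 1.21 CPM under the MSC-TPr label. Psmb10 (β2i) was at 27.8, 8.81 and 8.38 CPM against 8.96, 17.3 and 15.2 CPM. Psmb11 (β5t) stayed at or below 0.355 CPM in every library, so none of the 3 separated the labels. Psmb9 and Psmb10 were both higher in Ctl MSC 1, MSC-TPr 2 and MSC-TPr 3 than in the other libraries, the split of the cell division genes. The reason for this was not tested. All names below are therefore names of labelled libraries. The study reports checking transduction by eGFP and by immunoblots of the subunits, which measure protein and not RNA. It also lists Psmb10 among genes with enhanced expression in MSC-TPr, which the values above do not show. Of 14 stromal markers 13 passed the filter on low counts, but Thy1 (CD90), a defining marker, had 1 read over the 6 libraries. The study reports CD90 on Ctl MSCs by flow cytometry, which measures protein and not RNA. The pan-leukocyte gene Ptprc (CD45) had 2 reads in all, and the 13 haematopoietic markers with a row summed to 11.3 to 14.5 CPM in Ctl MSC against 13.0 to 17.5 CPM in MSC-TPr. The 6 epithelial markers summed to 0.772 to 2.60 CPM over the libraries.

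Hox genes encode homeodomain transcription factors that give cells of the body axis and limbs their positional identity. They lie in 4 clusters, and their order from the 3′ to the 5′ end of a cluster follows the order in which they act from anterior to posterior and, for HoxA and HoxD in the limb, from proximal to distal. Fibroblasts and stromal cells of the adult keep Hox patterns that reflect where in the body they came from, held by Polycomb and trithorax chromatin regulators.

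The Hox code was carried by HoxA and HoxC in all 6 libraries. At a level of 1 CPM, taken as on, 13 genes were on in every library, among them Hoxa3, Hoxa5, Hoxa7, Hoxa9, Hoxa10, Hoxa11, Hoxa13, Hoxc6, Hoxc9, Hoxc10, Hoxc12 and Hoxc13. In no library were 19 genes on, and for the remaining 7 (Hoxa4, Hoxa6, Hoxb6, Hoxb9, Hoxc4, Hoxc5 and Hoxc8) the call differed between libraries. The 6 libraries thus gave 1 call for 32 of 39 genes. Among genes on in at least 1 library, 65% of the Hox genes and 88.8% of all genes in the table were on in every library. These shares were not matched for level. The number of Hox genes on was 17, 17 and 15 in Ctl MSC and 15, 18 and 15 in MSC-TPr. The most 5′ gene on was of paralogue group 13 in HoxA and in HoxC in each library. HoxA took 36.4% to 60.9% of a library's Hox reads, HoxC 38.7% to 62.4%, HoxB 0.337% to 2.04% and HoxD no more than 0.0241%.

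**Figure D1:**
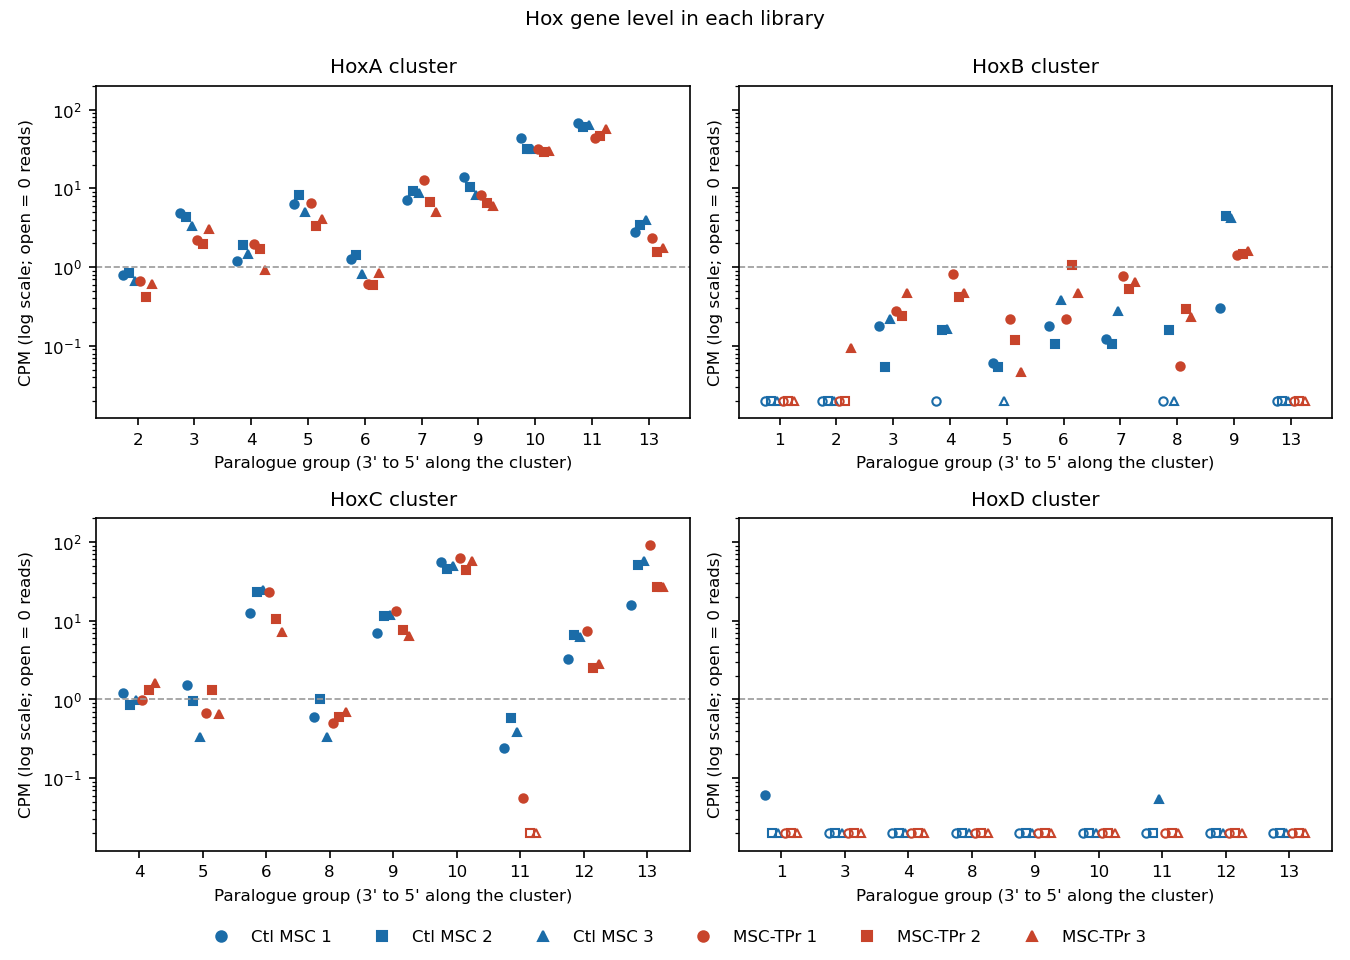
CPM (log scale) of 38 Hox genes in each library, by paralogue group along each cluster; colours are the labels, shapes the library numbers, open symbols genes with 0 reads, and the dashed line 1 CPM. Signal runs along HoxA and HoxC up to group 13, HoxB is mostly under 1 CPM and HoxD holds 2 reads in all; levels of different genes are not comparable on this axis, which is not scaled for length.

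Promoters of posterior genes of HoxA and HoxD are printed here because these clusters pattern the distal limb together, and HoxA was on and HoxD silent in these libraries. The sequences are RefSeq's on GRCm38.p6, from 250 bases before to 50 bases after each listed start, 5′ to 3′ on the gene's strand, with CG dinucleotides in capitals. Hoxa11 (chr6:52245761-52246060, minus strand) was on in every library and holds 15 CG, and 34.6% of all 32851 promoters of this length hold as many or more. Hoxa13 (chr6:52260831-52261130, minus strand) was on in every library and holds 45, matched by 1.93% of promoters. Hoxd11 has a pair of listed starts, at chr2:74679308-74679607 and chr2:74682073-74682372 (plus strand), with 4 and 25 CG, matched by 68.6% and 18.4% of promoters. Hoxd13 (chr2:74667975-74668274, plus strand) holds 37, matched by 5.58%.
Hoxa11: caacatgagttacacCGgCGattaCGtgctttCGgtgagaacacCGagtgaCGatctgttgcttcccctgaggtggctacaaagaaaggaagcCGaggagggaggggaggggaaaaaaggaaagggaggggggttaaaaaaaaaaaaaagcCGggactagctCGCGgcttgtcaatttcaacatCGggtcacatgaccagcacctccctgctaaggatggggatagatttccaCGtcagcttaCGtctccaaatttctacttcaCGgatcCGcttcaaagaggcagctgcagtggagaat
Hoxa13: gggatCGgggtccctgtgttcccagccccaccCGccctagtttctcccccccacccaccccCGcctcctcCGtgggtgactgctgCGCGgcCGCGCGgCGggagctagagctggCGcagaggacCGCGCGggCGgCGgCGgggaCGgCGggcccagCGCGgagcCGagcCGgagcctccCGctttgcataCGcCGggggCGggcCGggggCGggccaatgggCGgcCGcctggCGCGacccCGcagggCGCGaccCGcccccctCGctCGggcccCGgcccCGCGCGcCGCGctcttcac
Hoxd11, first start: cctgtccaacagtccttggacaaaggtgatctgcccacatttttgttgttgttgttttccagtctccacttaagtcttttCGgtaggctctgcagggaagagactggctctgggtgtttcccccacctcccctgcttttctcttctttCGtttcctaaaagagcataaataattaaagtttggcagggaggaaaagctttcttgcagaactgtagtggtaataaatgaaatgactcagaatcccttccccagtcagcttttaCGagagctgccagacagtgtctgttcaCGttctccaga
Hoxd11, second start: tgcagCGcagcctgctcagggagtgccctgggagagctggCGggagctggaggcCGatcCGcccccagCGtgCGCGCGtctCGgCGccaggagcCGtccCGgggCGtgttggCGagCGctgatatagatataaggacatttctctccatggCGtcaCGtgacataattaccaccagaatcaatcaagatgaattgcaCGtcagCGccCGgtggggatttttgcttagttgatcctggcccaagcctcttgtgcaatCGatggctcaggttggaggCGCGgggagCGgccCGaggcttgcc
Hoxd13: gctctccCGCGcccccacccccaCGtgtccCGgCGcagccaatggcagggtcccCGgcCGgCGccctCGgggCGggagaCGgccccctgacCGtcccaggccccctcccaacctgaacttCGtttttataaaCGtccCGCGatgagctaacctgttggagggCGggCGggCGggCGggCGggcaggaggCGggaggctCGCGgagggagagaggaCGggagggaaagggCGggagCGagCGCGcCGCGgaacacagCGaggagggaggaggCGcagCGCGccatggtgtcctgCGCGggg
Over the listed promoters, the median was 17.5 CG for 10 of HoxA and 20 CG for 10 of HoxD, against 7 over all promoters, and the ranges, 4 to 45 and 4 to 37, overlapped. Promoters of 22 of the 39 Hox genes were listed.

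Hoxa10 and Hoxa11 had the highest HoxA levels. Hoxa11 (ENSMUSG00000038210, chromosome 6, 52242106 to 52245810, minus strand), a gene of the forearm and lower leg segment, was at 67.1, 60.5 and 63.6 CPM in Ctl MSC against 44.2, 46.1 and 56.5 CPM in MSC-TPr. Hoxa10, a gene of the thigh and upper arm segment and the uterus, was at 43.7, 31.5 and 31.6 CPM against 32.1, 28.8 and 29.6 CPM. The highest and lowest libraries differed 1.52-fold for each of them, so the leading genes were also among the steadiest. Hoxa9 was at 13.8, 10.5 and 8.16 CPM in Ctl MSC against 8.24, 6.50 and 5.98 CPM in MSC-TPr. Hoxa13, which acts in hand and foot, was on but low, at 2.78, 3.42 and 4.02 CPM against 2.38, 1.54 and 1.76 CPM. For Hoxa13, every library labelled Ctl MSC lay above every library labelled MSC-TPr, whereas the labels overlapped for Hoxa9.

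The more anterior HoxA genes were at levels below Hoxa10 and Hoxa11. Hoxa3, known from the pharyngeal arches and thymus, was at 4.83, 4.32 and 3.31 CPM in Ctl MSC against 2.21, 1.95 and 3.01 CPM in MSC-TPr. The labels did not overlap for Hoxa3, whose annotated span (52169062 to 52213336) reaches over its neighbours and shares exons with a readthrough transcript, so its counts are uncertain. Hoxa5 was at 6.28, 8.17 and 5.07 CPM in Ctl MSC against 6.47, 3.31 and 4.08 CPM in MSC-TPr. Hoxa7 was at 7.19, 9.29 and 8.71 CPM against 12.7, 6.80 and 5.05 CPM. Both overlapped between the labels, and MSC-TPr 1 held the highest Hoxa7 value of all libraries. Hoxa4 lay near 1 CPM, at 1.21, 1.92 and 1.49 CPM in Ctl MSC against 1.99, 1.71 and 0.927 CPM in MSC-TPr. Hoxa6 was at 1.27, 1.44 and 0.827 CPM against 0.609, 0.591 and 0.834 CPM. Their differing calls thus came from values close to the limit, and Hoxa2, the only HoxA gene on nowhere, was at 0.414 to 0.854 CPM.

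HoxC held the gene with the most stable level. Hoxc10 (ENSMUSG00000022484, chromosome 15, 102966796 to 102971893, plus strand), a posterior gene known from hindlimb motor columns and hindlimb tissue, was at 54.9, 45.9 and 49.6 CPM in Ctl MSC against 61.9, 43.8 and 57.3 CPM in MSC-TPr. Its highest and lowest libraries differed 1.41-fold. Hoxc13 (ENSMUSG00000001655, chromosome 15, 102921103 to 102928814, plus strand), best known from hair and nail, was at 15.9, 51.6 and 57.6 CPM in Ctl MSC against 92.1, 26.5 and 26.5 CPM in MSC-TPr, a 5.80-fold range. Hoxc12 was at 3.26, 6.57 and 6.28 CPM against 7.36, 2.48 and 2.78 CPM. Hoxc9, a gene of the lower thoracic level, was at 7.00, 11.5 and 11.8 CPM in Ctl MSC against 13.4, 7.69 and 6.49 CPM in MSC-TPr. Hoxc6, a gene of the thoracic level, was at 12.4, 23.2 and 24.8 CPM against 23.3, 10.5 and 7.23 CPM. For each of Hoxc6, Hoxc9, Hoxc12 and Hoxc13, the 3 highest libraries were Ctl MSC 2, Ctl MSC 3 and MSC-TPr 1, those with the low cell division levels given above, and the same held for Hoxa7. Principal component 1 over all tested genes made the same split, so this pattern was not particular to Hox genes. The share of all tested genes that show it was not counted. Cell type markers differed between the same libraries. The 14 stromal markers summed to 4667, 4669 and 3081 CPM in Ctl MSC 2, Ctl MSC 3 and MSC-TPr 1, and to 8697 to 15755 CPM in the other 3. The 8 endothelial markers, of which 2 were tested, summed to 6.30, 6.28 and 24.8 CPM in those libraries and to 1.51 to 2.96 CPM in the other 3. Of the endothelial genes, Vwf made up 21.4 CPM in MSC-TPr 1, while Tie1 had 0 reads and the defining marker Pecam1 stayed at or below 0.221 CPM. The part of cell division and of other cell types in these HoxC levels was not tested.

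Hoxc4, Hoxc5 and Hoxc8 lay on both sides of 1 CPM. Hoxc4 was at 1.21, 0.854 and 0.992 CPM in Ctl MSC against 0.996, 1.30 and 1.62 CPM in MSC-TPr. Hoxc5 was at 1.51, 0.961 and 0.331 CPM against 0.664, 1.30 and 0.649 CPM, and its annotated span overlaps Hoxc10 on the same strand, so its few reads are uncertain. Hoxc8 was at 0.604, 1.01 and 0.331 CPM against 0.498, 0.591 and 0.695 CPM. All of these overlapped between the labels. Hoxc11, which lies between Hoxc10 and Hoxc12, was under 1 CPM throughout, with 4, 11 and 7 reads in Ctl MSC and 1, 0 and 0 reads in MSC-TPr. The labels did not overlap, and the Ctl MSC total of 22 reads against 1 read was a ratio of 23.3 (95% interval by exact binomial counting 3.76 to 961, counting error only). Hoxc11 did not pass the filter on low counts, so the main fit over 6 libraries gave it no test. A fit over 6 libraries without that filter tested Hoxc11 and did not call it.

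HoxB was close to silent. Hoxb9 (ENSMUSG00000020875, chromosome 11, 96271457 to 96276595, plus strand), a gene of the lower thoracic level, was the only HoxB gene that passed the filter on low counts, at 0.302, 4.48 and 4.24 CPM in Ctl MSC against 1.44, 1.48 and 1.62 CPM in MSC-TPr. Its highest and lowest libraries differed 14.9-fold, the widest range among the tested Hox genes, and Ctl MSC 1 alone was under 1 CPM. Hoxb6 was on only in MSC-TPr 2, with 3, 2 and 7 reads in Ctl MSC and 4, 18 and 10 reads in MSC-TPr. Its ratio of pooled reads, MSC-TPr over Ctl MSC, was 2.52 (95% exact interval 1.26 to 5.37), with overlapping labels. The intervals of this paragraph cover counting error only and not the spread between libraries. Hoxb4 had 0, 3 and 3 reads in Ctl MSC and 15, 7 and 10 reads in MSC-TPr, a ratio of 5.04 (95% exact interval 2.08 to 14.7). Hoxb7 had 2, 2 and 5 reads against 14, 9 and 14 reads, a ratio of 3.88 (1.84 to 9.15). Hoxb3 had 3, 1 and 4 reads against 5, 4 and 10 reads, a ratio of 2.24 (0.938 to 5.93). Its 4 reads in Ctl MSC 3 and its 4 reads in MSC-TPr 2 scaled to 0.221 and 0.236 CPM. In CPM, no Ctl MSC library reached an MSC-TPr library for these last 3 genes, for Hoxb3 only through this scaling, and all stayed under 1 CPM. None of these 3 genes passed the filter on low counts. Among the genes that passed it, 10.6% showed no overlap in that direction, and 0 of the 20 Hox genes did. The share over genes of such low counts was not computed. Hoxb5 and Hoxb8 had 0 to 5 reads per library, with ratios of 3.31 (0.630 to 32.6) and 3.46 (0.915 to 19.3) and overlapping labels. Hoxb2 had 2 reads in MSC-TPr 3 only, and Hoxb1 and Hoxb13 had none.

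HoxD was silent at this depth. It held 1 read of Hoxd1 in Ctl MSC 1, 1 read of Hoxd11 in Ctl MSC 3 and no read of Hoxd3, Hoxd4, Hoxd8, Hoxd9, Hoxd10, Hoxd12 or Hoxd13. Over the 110094708 reads on genes of the 6 libraries, 0 reads allow a level of up to 0.0273 CPM. Genes that flank the silent cluster were expressed: Lnp, on the side of Hoxd13, was at 60.2 to 90.9 CPM and Mtx2, on the side of Hoxd1, at 36.5 to 63.9 CPM, while Evx2, the homeobox gene next to Hoxd13, had 0 reads. In HoxA, Evx1 beyond Hoxa13 also had 0 reads, and Hibadh further out was at 67.3 to 79.8 CPM.

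Levels of different genes were compared per kb of annotated exon. The mean over 6 libraries was 27.4 CPM per kb for Hoxc10 (range 22.9 to 32.4), 24.6 for Hoxa11 (19.3 to 29.3), 18.3 for Hoxc13 (6.45 to 37.4), 10.7 for Hoxc6 (4.57 to 15.7) and 10.5 for Hoxa10 (9.16 to 13.9). These 5 genes were the highest 5 in each of the 6 libraries. Their order differed: Hoxa11 led in the 3 Ctl MSC libraries, Hoxc13 in MSC-TPr 1 and Hoxc10 in MSC-TPr 2 and 3. Among them neighbours in the order had overlapping ranges, so Hoxc10 and Hoxa11 did not differ beyond their spread, nor did Hoxc6 and Hoxa10, whereas the lowest Hoxa10 library lay above the highest library of Hoxc12, the next gene. Next came Hoxc12 at 4.65, Hoxc9 at 4.06, Hoxa7 at 3.33, Hoxa5 at 2.96 and Hoxa9 at 2.75 CPM per kb, each neighbour overlapping the next in range. Hoxa3, Hoxa13, Hoxa6, Hoxa4 and Hoxb9 lay between 0.879 and 1.26 CPM per kb. The order depends on the length used: over the shortest coding transcript, means became 22.9 for Hoxa10, 12.9 for Hoxa7 and 10.4 CPM per kb for Hoxa9.

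**Figure D2:**
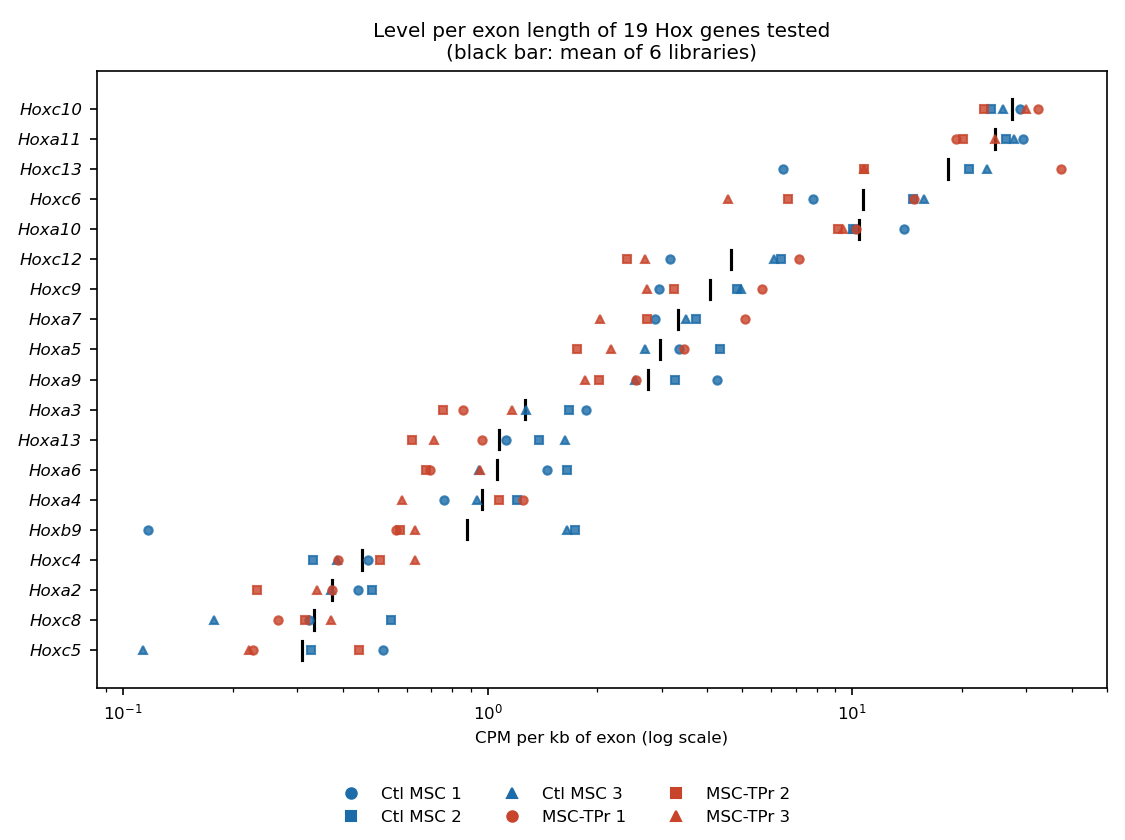
CPM per kb of exon (log scale) of 19 Hox genes that passed the filter on low counts, 1 symbol per library, with the mean of the 6 libraries as a black bar. Hoxc10, Hoxa11, Hoxc13, Hoxc6 and Hoxa10 lie above the others in mean, and Hoxb9 and Hoxc13 spread widest.

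As a whole the pattern was alike across libraries in order but not in size. Spearman's rho between libraries over the 39 genes ran from 0.938 to 0.985 across the 15 pairs, a description over genes that share their library and their many values near 0. Over the tested Hox genes, the median absolute log2 difference between a pair of libraries ran from 0.21 (Ctl MSC 2 and 3) to 0.81 (Ctl MSC 2 and MSC-TPr 3), and it was above the same median over all tested genes in 14 of the 15 pairs. The median ratio of the highest to the lowest library was 2.45 for the 20 Hox genes and 1.93 for all 11974 genes tested. These comparisons were not matched for level. Some of the tested Hox genes were low, such as Hoxa2 at a mean of 0.664 CPM and Hoxc8 at 0.622 CPM. The part of low counts in the wider spread was not tested.

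MSC-TPr was then compared with Ctl MSC, the contrast of the design. These are bulk libraries, in which fewer cells that express a gene and less of its RNA per cell cannot be told apart. No Hox gene passed the test (edgeR's quasi-likelihood test with a Benjamini-Hochberg adjusted p below 0.05 and a fitted change of 0.5 or more on the log2 scale): 0 of 20 higher and 0 of 20 lower, against 0.0251% of all tested genes higher and 0.401% lower. DESeq2 also called 0 of 25 Hox genes in either direction, against 1.89% of all genes higher and 3.39% lower. Without the filter on low counts, edgeR called 0 of 30 Hox genes in either direction. The shares over all genes in that fit were 0.0178% higher and 0.369% lower. At an unadjusted p under 0.05, 0 Hox genes were higher and 3 of 20 lower, against 6.81% and 8.23% of all genes. The fitted log2 fold changes ran from -0.99 (Hoxb9) to 0.36 (Hoxc4) with a median of -0.30, and 16 of 20 were below 0, against a median of 0.01 and 48.9% below 0 over all genes. The Hoxb9 value was -1.52 without Ctl MSC 1, -0.59 without Ctl MSC 2, -0.67 without Ctl MSC 3 and -0.15 with the cell division covariate. The 3 genes with an unadjusted p under 0.05 were those whose labels did not overlap, Hoxa3, Hoxa11 and Hoxa13, and 12.1% of all genes showed no overlap in that direction.

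Hoxa13 averaged 3.41 ± 0.623 CPM (SD, n = 3) in Ctl MSC against 1.89 ± 0.436 CPM (SD, n = 3) in MSC-TPr, and its fitted log2 fold change was -0.85 (SE 0.308, edgeR adjusted p = 0.278). Hoxa3 averaged 4.15 ± 0.776 CPM (SD, n = 3) in Ctl MSC against 2.39 ± 0.553 CPM (SD, n = 3) in MSC-TPr, and its fitted log2 fold change was -0.79 (SE 0.301, edgeR adjusted p = 0.293). Hoxa11 averaged 63.7 ± 3.28 CPM (SD, n = 3) in Ctl MSC against 48.9 ± 6.64 CPM (SD, n = 3) in MSC-TPr, and its fitted log2 fold change was -0.38 (SE 0.156, edgeR adjusted p = 0.322). None of the 3 differences passed the correction over all genes. Hoxa11as, the antisense transcript that overlaps Hoxa11, was at 27.9, 29.6 and 32.5 CPM in Ctl MSC against 20.8, 18.0 and 22.0 CPM in MSC-TPr, likewise without overlap (log2 fold change -0.57, SE 0.170, edgeR adjusted p = 0.215). The library kit keeps strand but the strand setting of the counting is not given in the sources used here, so reads of Hoxa11 and Hoxa11as may not be told apart.

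**Figure D3:**
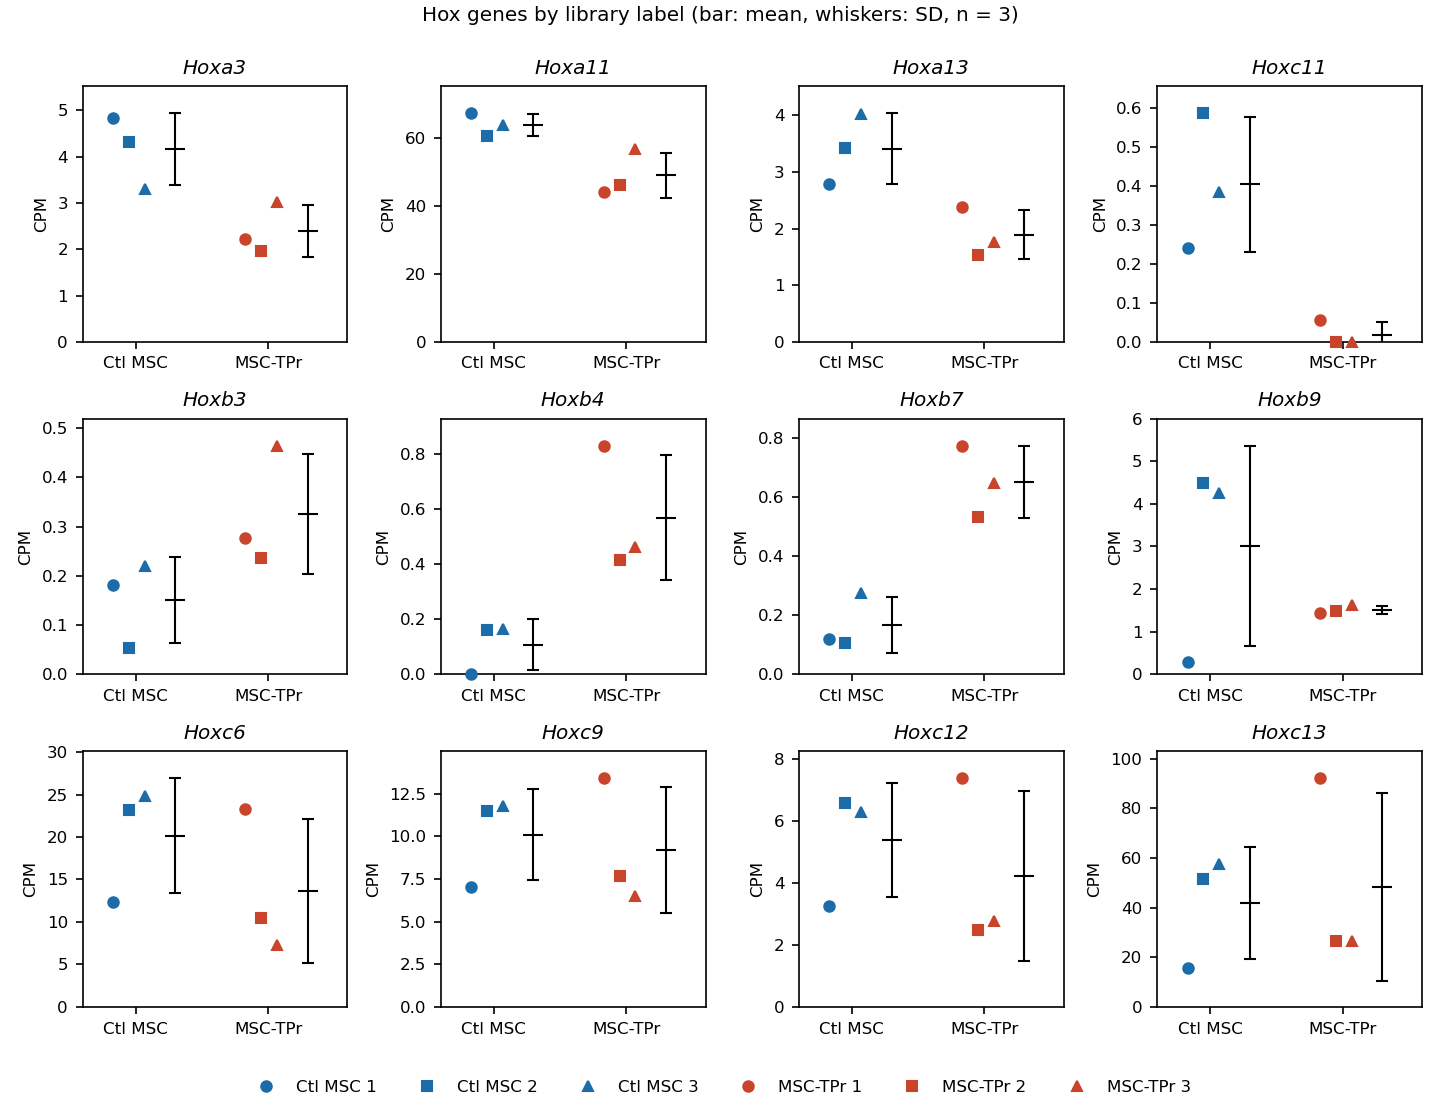
CPM of 12 Hox genes by label, 1 symbol per library, with the mean and SD of 3 libraries beside them; each axis starts at 0. Hoxa3, Hoxa11, Hoxa13 and Hoxc11 lie lower and Hoxb3, Hoxb4 and Hoxb7 higher in all 3 MSC-TPr libraries, whereas in the bottom row MSC-TPr 1 sits with Ctl MSC 2 and 3.

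The HoxC differences depended on which libraries entered. Over all 6 libraries the log2 fold change of Hoxc13 was 0.21 (SE 0.658, edgeR adjusted p = 0.907), and without Ctl MSC 1 or MSC-TPr 1 it was -0.17 or -0.65. With only the libraries numbered 2 and 3, where the label and the cell division level go together and cannot be told apart, it was -1.04 (SE 0.122, edgeR adjusted p = 0.0016). With the cell division level as a covariate over all 6 libraries it was 0.74 (SE 0.118, edgeR adjusted p = 0.0090). The sign of the Hoxc13 difference and its call thus depended on the libraries and on the covariate. The 4-library fit called 0 Hox genes higher and 6 lower (Hoxa13, Hoxb9, Hoxc6, Hoxc9, Hoxc12 and Hoxc13) of 20, in a comparison that called 20.6% of all genes higher and 19.4% lower. The covariate fit called 1 higher (Hoxc13) and 0 lower of 20, against 4.75% and 7.36% of all genes. Without the filter on low counts, forms of both fits that were added after the data were seen, the 4-library fit called 0 higher and 10 lower of 29 Hox genes, now with Hoxa5, Hoxa7, Hoxa9 and Hoxc11, against 16.2% and 15.3% of all genes. The unfiltered covariate fit called 2 higher (Hoxb4 and Hoxc13) and 1 lower (Hoxc11) of 30, against 3.61% and 5.27%. In the 4 libraries numbered 2 and 3 the labels did not overlap for 1 Hox gene higher (Hoxc4) and 13 lower of 20, against 38.4% and 38.9% of all genes. Hoxa13 was lower in each of the 3 fits, at -0.85, -1.16 and -0.69 on the log2 scale, and passed the test in the 4-library fit alone (edgeR adjusted p = 0.0119). Other Hox genes were also lower in each, among them Hoxa3 (-0.79, -0.60 and -0.87) and Hoxa11 (-0.38, -0.27 and -0.44). The 3 fits share libraries and are not independent. Hoxc10 stayed between 0.09 and 0.13 in the 3 fits.

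**Figure D4:**
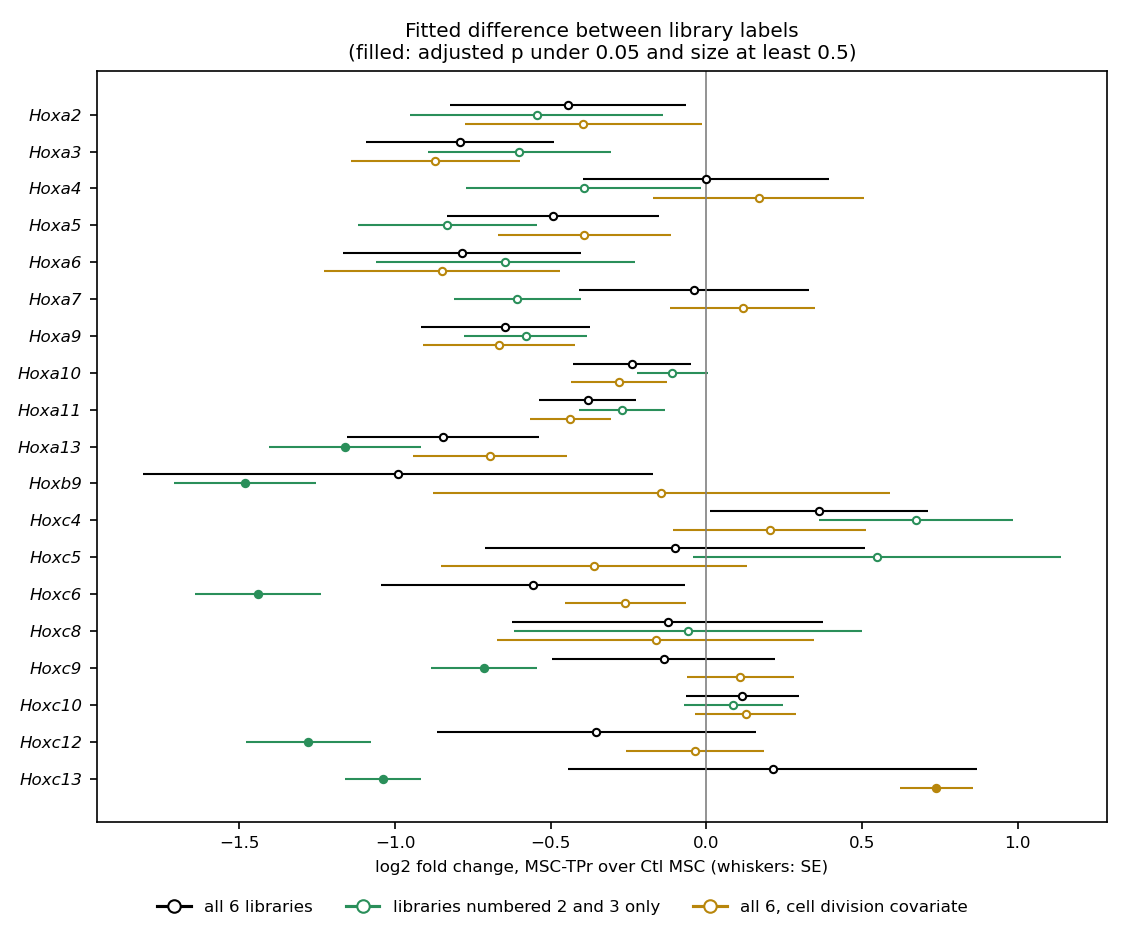
Fitted log2 fold change (MSC-TPr over Ctl MSC) with its SE for 19 tested Hox genes, from all 6 libraries, from the 4 libraries numbered 2 and 3, and from all 6 with the cell division level as a covariate; filled symbols passed the test. Filled symbols appear for 6 genes in the 4-library fit and for Hoxc13 in the covariate fit, and these fits place Hoxc13 on opposite sides of 0.

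Hox proteins bind DNA together with homeodomain cofactors of the TALE class, the Pbx, Meis and Pknox proteins. Of 9 such genes 8 were tested and none passed in either direction, with a median log2 fold change of 0.12 against 0.01 over all genes. Meis3 was at 6.04, 6.25 and 7.28 CPM in Ctl MSC against 17.2, 12.5 and 13.1 CPM in MSC-TPr, without overlap (log2 fold change 1.13, SE 0.220, edgeR adjusted p = 0.103). Meis2 was at 15.7, 49.3 and 49.2 CPM in Ctl MSC against 59.3, 17.7 and 20.3 CPM in MSC-TPr. Its high libraries were those of Hoxc13. Pknox1, at 19.4 to 24.1 CPM, Pbx2, at 19.5 to 36.0 CPM, and Pknox2, at 21.7 to 45.0 CPM, overlapped between the labels.

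Factors of limb and skeletal fields give position beside the Hox genes, and 18 of 30 were tested. None was called higher and 2 of 18 were called lower, against 0.401% of all tested genes, with a median log2 fold change of -0.18. The list was chosen with earlier results of these data known, so these counts do not test it as a set. Barx1, a homeobox gene of joints and stomach mesenchyme, was at 22.0, 19.3 and 18.0 CPM in Ctl MSC against 3.87, 4.55 and 5.70 CPM in MSC-TPr. All MSC-TPr libraries lay below all Ctl MSC libraries, and Barx1 fell by 2.07 on the log2 scale (SE 0.230, edgeR adjusted p = 0.0285). Isl1, a LIM homeobox gene of the early hindlimb field, had 92, 40 and 44 reads in Ctl MSC and 2, 3 and 1 reads in MSC-TPr. It fell by 4.88 on the log2 scale (SE 0.655, edgeR adjusted p = 0.0485). Isl1 passed the filter on low counts only through the Ctl MSC libraries, where it is high. Neither call held in each refit with 1 library left out: the edgeR adjusted p exceeded 0.05 when any library other than Ctl MSC 1 was dropped and reached 0.204 for Barx1 without MSC-TPr 2 and 0.220 for Isl1 without MSC-TPr 3. Alx1, a gene of craniofacial mesenchyme, had 18, 22 and 33 reads against 1, 2 and 0 reads (edgeR adjusted p = 0.0774). The most abundant of the list were Prrx1, at 120 to 528 CPM, Emx2, at 78.1 to 140 CPM, Tbx15, at 68.1 to 109 CPM, and Tbx18, at 20.3 to 60.4 CPM, each with overlapping labels. Pitx1, which sets hindlimb identity, was at 26.3, 20.6 and 22.4 CPM in Ctl MSC against 19.9, 17.4 and 21.9 CPM in MSC-TPr. Its partner Tbx4 had 1 to 8 reads per library, and Tbx5, the forelimb gene, had 1 read over the 6 libraries. Pitx1, Tbx4 and Tbx5 were picked for mention after their values were seen.

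**Figure D5:**
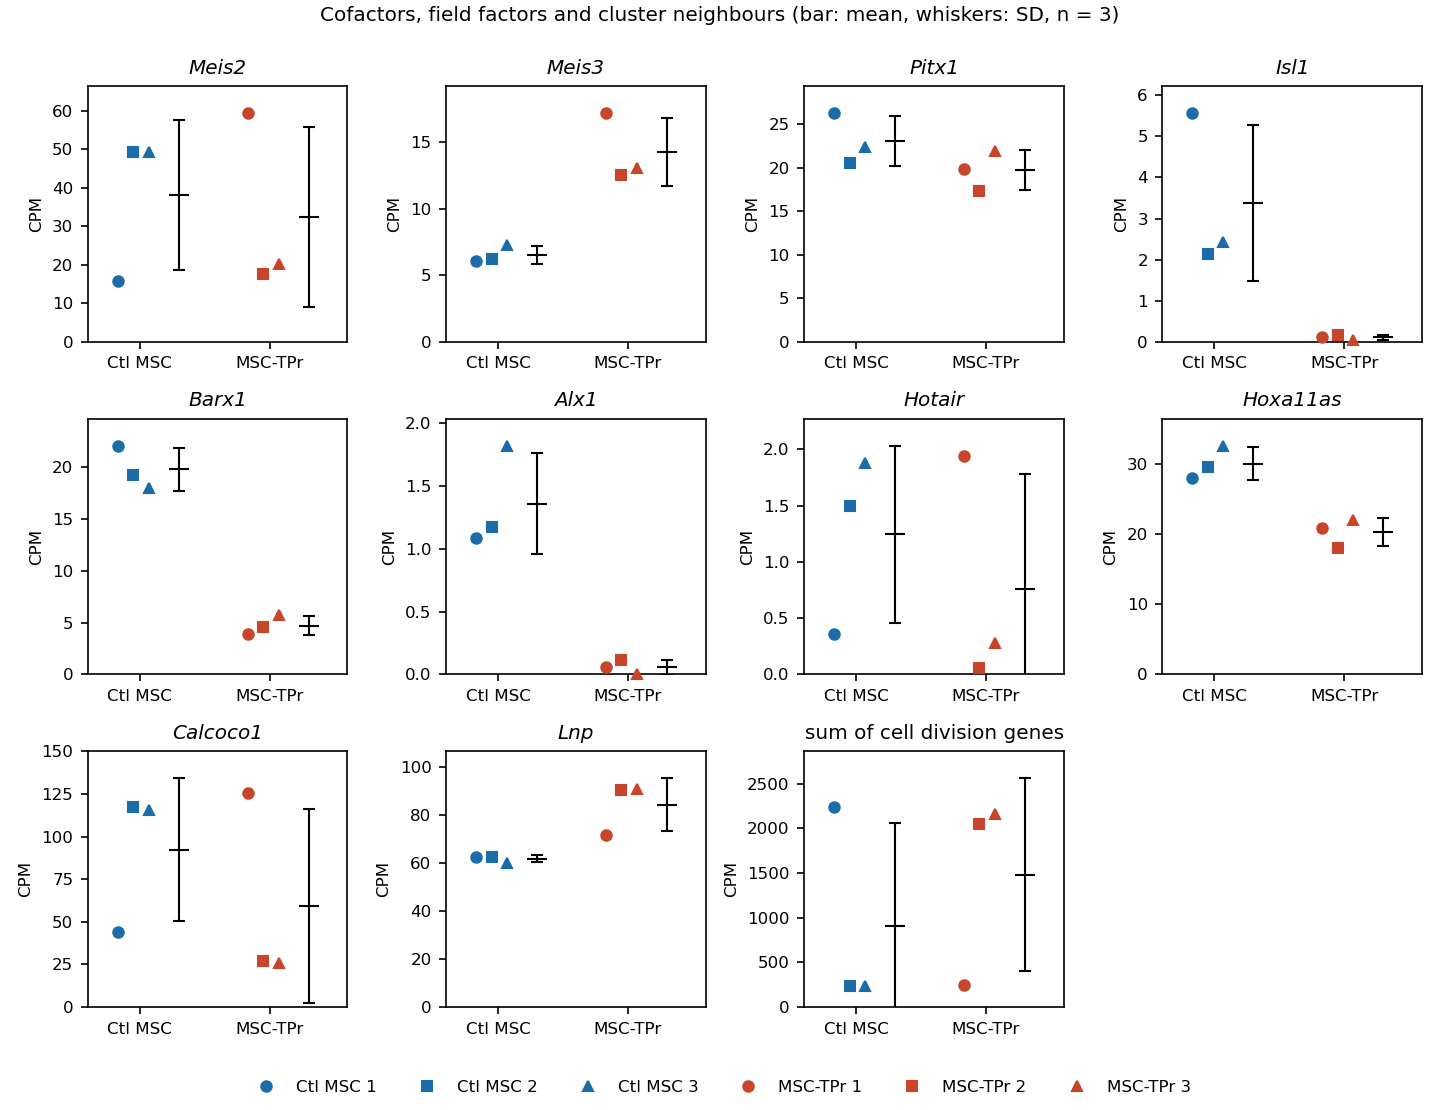
CPM by label of TALE cofactors, limb and skeletal field factors, non-coding transcripts and neighbours of the Hox clusters and the summed cell division genes, 1 symbol per library, with the mean and SD of 3 libraries; each axis starts at 0. Meis3, Isl1, Barx1, Alx1, Hoxa11as and Lnp do not overlap between the labels, Pitx1 does, and Meis2, Hotair and Calcoco1 run opposite to the cell division genes.

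The chromatin regulators that hold Hox states were present throughout. All 27 Polycomb and trithorax genes of the list were tested and none passed in either direction, with a median log2 fold change of 0.01. Suz12 and Bmi1, core subunits of the Polycomb complexes, were at 160 to 186 CPM and 146 to 173 CPM. Phc2 was at 136 to 180 CPM and Psip1 at 115 to 220 CPM. Wdr5, a subunit of the MLL-type methyltransferase complexes, was at 67.3, 78.9 and 80.7 CPM in Ctl MSC against 117, 108 and 89.1 CPM in MSC-TPr, without overlap and without passing the test (log2 fold change 0.47, SE 0.164, edgeR adjusted p = 0.265). The Cdx and ParaHox genes, relatives of the Hox genes that act in gut and tail, were all under 1 CPM, with 5 of 6 at 0 reads in each library.

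Of 18 non-coding genes listed for the clusters 10 had a row and 2 were tested, Hoxa11as and Hotair, with none called. Hotair, transcribed from HoxC between Hoxc11 and Hoxc12, had 6, 28 and 34 reads in Ctl MSC and 35, 1 and 6 reads in MSC-TPr, high in the same 3 libraries as Hoxc12 and Hoxc13. Of the 14 flanking genes with a row 9 were tested and none passed, with a median log2 fold change of 0.15. Calcoco1, which flanks HoxC beyond Hoxc13, was at 43.9, 117 and 115 CPM in Ctl MSC against 125, 26.7 and 25.9 CPM in MSC-TPr, again high in those 3 libraries. On the HoxD side, Mtx2 was at 46.6, 36.5 and 41.1 CPM against 55.4, 63.9 and 51.4 CPM (log2 fold change 0.46, SE 0.166, edgeR adjusted p = 0.276). Lnp was at 62.7, 62.6 and 60.2 CPM against 71.8, 90.6 and 90.9 CPM (log2 fold change 0.45, SE 0.151, edgeR adjusted p = 0.248). Neither overlapped between the labels, and neither passed the test. For 4 of the 9 tested flanking genes, each MSC-TPr value exceeded each Ctl MSC value, as it did for 10.6% of all tested genes. The reverse held for 0 of these 9 and for 12.1% of all tested genes. Atp5g3, at 115 to 266 CPM, overlapped between the labels, while Atf2, at 67.2 to 91.5 CPM in Ctl MSC against 98.1 to 105 CPM in MSC-TPr, did not (edgeR adjusted p = 0.428).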

How the data were processed

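Polyadenylated RNA from 3 Ctl MSC and 3 MSC-TPr libraries was sequenced by the study (KAPA stranded kit). The submitters' processing notes name CASAVA 1.8.2, Trimmomatic 0.35, TopHat2 2.1.0, the mm10 genome and HTSeq-count, whose version and strand setting are not given in the sources used here. The deposited values are raw read counts per gene, made by the authors. The 5 HTSeq summary rows, 13.8% to 20.8% of a library's reads, were left out.

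Counts were fitted with edgeR 4.0.16 in R 4.3.3: filterByExpr (11974 genes kept), TMM factors, 1 coefficient for the label, quasi-likelihood F test and Benjamini-Hochberg adjustment over all genes kept. The SE is the log2 fold change over the root of F. DESeq2 1.42.0, other scalings and filters, single libraries left out, the libraries numbered 2 and 3 alone and a cell division covariate (mean log2 level of 20 genes) were alternatives. The script was tested on simulated data. Exon lengths, coordinates and overlaps came from GENCODE M21, promoters from RefSeq (GRCm38.p6). Counting intervals are exact binomial at 95%, conditional on summed reads and library sizes, and cover counting error only.

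Same-numbered libraries deviated in opposite directions (correlations of their deviations from the label means -0.76, -0.59 and -0.60). Unlike numbers gave -0.58 to 0.72. Library 1 of each label stood apart in cell division level, so these correlations cannot decide whether the numbers pair libraries. No pair of libraries within a label agreed within sampling noise.

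Members and gene lists were chosen with earlier results of these data known. Counts and medians cover all members, but values of some genes are not reported here. Otherwise, by rule, the text gives every Hox gene, with its value in each library where it reached 1 CPM in any, and of each list the members called, those with an unadjusted p under 0.05 and labels that do not overlap, and up to 4 more by mean CPM. The cell type, cell division and Cdx lists are given by counts or sums.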

Additional observations from a re-analysis of the deposited data

How the results depend on the processing

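Each result was refitted under up to 16 alternatives. Of the Hox calls, the libraries numbered 2 and 3 alone gave 6 lower and, without the filter on low counts, 10 lower. The cell division covariate gave 1 higher and, without the filter, 2 higher and 1 lower. The unfiltered forms of these fits were chosen after seeing the data. Over all genes the calls higher and lower were 244 and 439 by DESeq2, 2498 and 2356 with libraries 2 and 3, 2651 and 2500 without the filter, 569 and 881 with the covariate and 607 and 886 without the filter, and 29 lower with at least 10 counts in every library. A fit with the replicate block called 0 genes in either direction, and whether the numbers pair the libraries is not known. Leaving out 1 library gave 0 to 11 higher and 0 to 105 lower calls over all genes, 0 Hox calls, and 0 to 1 Hox genes higher and 3 to 10 lower without overlap, against 11.9% to 23% and 13.3% to 24.4% of all genes. With libraries 2 and 3 alone these counts were 1 and 13. At 2 CPM, 3 genes were on in some libraries and 11 in MSC-TPr 2; at 10 reads, 24 were on in MSC-TPr 3.

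Of the log2 fold changes that turned their sign, Hoxa4 became 0.0018 with RLE factors, 0.011 without the filter, 0.0080 with DESeq2 and 0.17 and 0.18 with the covariate, and Hoxa7 0.12 and 0.13 and Hoxc9 0.11 and 0.12 with the covariate, each filtered and unfiltered. Hoxc5 became 0.55 with libraries 2 and 3 under both filters and 0.051 with the replicate block. Hoxc13 became -1.04 with libraries 2 and 3 under both filters. With 1 library left out, Hoxa4 ran from -0.23 to 0.27, Hoxa7 from -0.50 to 0.22, Hoxc5 from -0.50 to 0.42, Hoxc8 from -0.44 to 0.35, Hoxc9 from -0.51 to 0.068 and Hoxc13 from -0.65 to 0.52. Why these signs turned was not tested. Genes under 1 CPM rest on few reads, and small shifts of them may be missed at this depth. The smallest shift that could be detected was not computed.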
